A study of Homo sapiens with 6 samples.

Results

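Collagen chain genes encode the polypeptides that wind, 3 at a time, into the collagens of the extracellular matrix. The genes described here are all those in the deposited counts whose symbol is COL, a number, A and a number, which leaves out antisense genes and pseudogenes. There were 44 of them among 29744 genes, and 25 had enough reads to be tested for differences between groups. They were sorted into 11 fibrillar chains, 6 basement membrane chains, 5 beaded-filament chains, 3 hexagonal network chains, 10 FACIT chains (fibril-associated collagens with interrupted helices), 4 transmembrane chains, 2 multiplexins, 1 anchoring fibril chain and 2 others.

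Messenger RNA was sequenced in 6 libraries of MDA-MB-231, a mesenchymal-like human breast cancer cell line without oestrogen receptor. The 2 control libraries came from wild-type cells with an untargeted short hairpin RNA (shRNA). The 2 libraries called shEZH2 came from cells with knockout of PARP1 and an shRNA against EZH2, and the 2 called shSUZ12 from cells with knockout of PARP1 and an shRNA against SUZ12. All cells were kept for 2 days in serum-containing medium before RNA extraction, and no group lacked PARP1, EZH2 or SUZ12 alone, so a difference from control cannot be assigned to 1 of these genes. Whether the knockout cells were a single clone, and whether replicate libraries came from separate cultures, is not stated in the labels, so p-values measure the spread between these libraries only.

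As background, PARP1 attaches poly(ADP-ribose) to proteins at DNA breaks, while Polycomb repressive complex 2 (PRC2), to which EZH2 and SUZ12 both belong, methylates histone H3 on lysine 27 at silenced genes. Fibrillar collagens form the banded fibres of connective tissue, type IV collagen forms the sheet of the basement membrane, and type VI collagen forms beaded microfilaments next to cells. A collagen often needs chains from several genes, and the chains are hydroxylated, folded and assembled in the endoplasmic reticulum, secreted, trimmed and crosslinked. Most connective tissue collagen is made by fibroblasts, while carcinoma cells also make basement membrane, type VI and transmembrane collagens.

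Gene counts per library ranged from 20135270 to 22782742, and 3 counts corresponded to 0.134 to 0.153 CPM, read counts divided by the library size as scaled by TMM normalisation. PARP1 was at 425 and 361 CPM in the controls, 33.6 and 28.6 CPM in shEZH2 and 28.7 and 26.6 CPM in shSUZ12. EZH2 was at 199 and 188 CPM in the controls, 53.1 and 63.5 CPM in shEZH2 and 201 and 221 CPM in shSUZ12. SUZ12 was at 134 and 133 CPM in the controls, 130 and 53.1 CPM in shEZH2 and 76.1 and 70.3 CPM in shSUZ12. PARP1 and EZH2 thus followed their labels, whereas the SUZ12 difference of shSUZ12 from control, −0.87 on the log2 scale, was not called (edgeR adjusted p = 0.377). Of the markers of the line, VIM and CD44 were abundant, ESR1 was listed at 0, PGR and CDH1 stayed under 1 CPM, and ERBB2 lay between 56.0 and 75.8 CPM. EPCAM, of the markers listed as low in this line, was at 16.4 and 14.2 CPM in the controls, 5.21 and 7.15 CPM in shEZH2 and 7.29 and 6.06 CPM in shSUZ12, and fell in shEZH2 (−1.31 on the log2 scale, edgeR adjusted p = 0.0295), a call lost without either control library (edgeR adjusted p = 0.233 and 0.206) or either shSUZ12 library (0.0906 and 0.0907). Replicates agreed least in shEZH2, where 15.3% of tested genes showed a gap over 2-fold after 0.1 CPM was added to each value. That share was 3.14% for the controls and 1.56% for shSUZ12.

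Control cells made a wide but uneven set of collagens, and the chains of type I and type III collagen were scarce among them. Collagen genes together held 1581 and 1596 CPM in the controls, 2015 and 1835 CPM in shEZH2 and 1663 and 1869 CPM in shSUZ12. Both shEZH2 and both shSUZ12 libraries were above both controls in this sum. To compare levels between genes, CPM was divided by transcript length in kilobases. On that scale COL13A1, a transmembrane collagen of adhesion sites, led in control at 82.8 and 87.8 CPM per kb. COL4A2 of the basement membrane, at 45.4 and 33.8 CPM per kb, and COL6A1 of the beaded filaments, at 31.4 and 36.4 CPM per kb, followed and overlapped each other. The next neighbours in the order also overlapped: the fibril initiator chain COL5A1 had a mean of 22.6 CPM per kb, COL18A1 21.8, the anchoring fibril chain COL7A1 17.1, COL8A1 15.3, COL12A1 12.8 and COL4A1 12.1. COL6A2 stood apart below them at 7.87 CPM per kb. In control 15 members had a mean of at least 1 CPM per kb, in shEZH2 15 and in shSUZ12 17.

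COL13A1 held the first rank per length in all 3 groups, and no member overlapped it. The order below it differed between groups. COL6A1 was second in shEZH2, at 63.0 and 59.6 CPM per kb, where its libraries overlapped those of COL4A2. COL7A1 was second in shSUZ12, at 34.9 and 46.4 CPM per kb, and did not overlap COL4A2, the third. Members that were not tested had few reads or none. No read fell on COL3A1, COL5A3, COL6A5, COL9A1, COL22A1, COL23A1 or COL25A1 in any library. The other 12 members that were not tested had at most 13 counts in a library, or 0.620 CPM: the cartilage fibril chains COL2A1, COL11A1 and COL11A2, the fibrillar COL24A1, the beaded-filament COL6A6, the growth plate collagen COL10A1, the FACIT chains COL14A1, COL19A1, COL20A1 and COL21A1, and COL26A1 and COL28A1. A count of 0 or a few limits the level at this depth and does not show that a gene is silent.

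**Figure D1:**
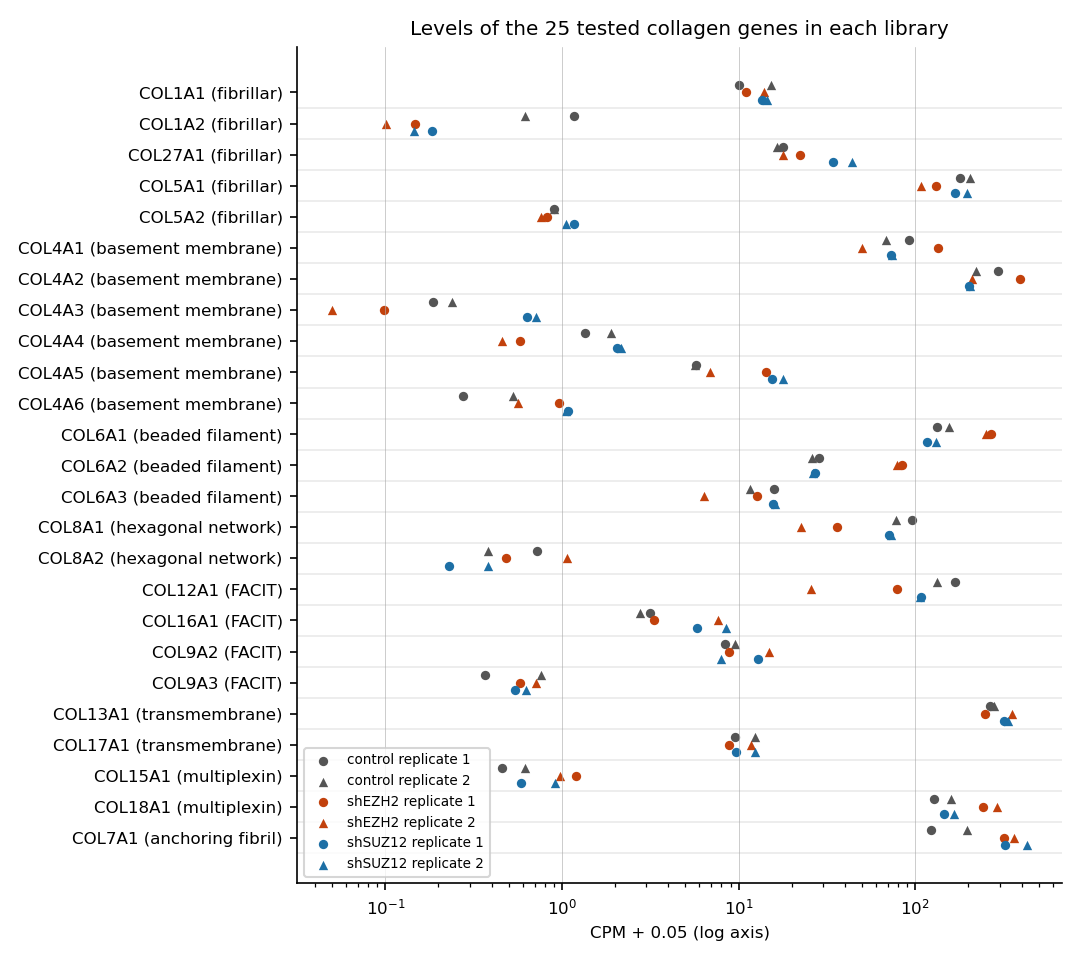
Level of each of the 25 tested collagen genes in every library, as CPM plus 0.05 on a log axis, with grey for control, orange for shEZH2, blue for shSUZ12, circles for replicate 1 and triangles for replicate 2. COL6A1, COL6A2 and COL18A1 have both orange points to the right of all others, COL8A1 has both to the left, and COL27A1 has both blue points to the right.

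In the shEZH2 cells, both type VI chains COL6A1 and COL6A2 and the basement membrane collagen COL18A1 rose against control, and COL1A2, COL4A4 and COL8A1 fell. These were 6 of 25 tested members, while 6.74% of all tested genes were called in this contrast (edgeR quasi-likelihood test, Benjamini-Hochberg adjusted p under 0.05). By direction, 3 members rose, against 3.54% of all genes, and 3 fell, against 3.20%. For COL1A2, among those that fell, only the controls had enough reads, so no rise could have been called. The DESeq2 test called 9 members, the same 6 with COL7A1 higher and COL5A1 and COL12A1 lower, and 13.0% of the genes to which it gave an adjusted p. In the shSUZ12 cells COL27A1 alone rose and no member fell, with 1.61% of all genes called (0.719% higher and 0.888% lower), and 7 members had an unadjusted p under 0.05, as did 13.1% of all tested genes. The DESeq2 test called 3 members there, all higher, and 3.28% of genes. Between the depleted lines, COL6A1 and COL6A2 were lower in shSUZ12 and no member was higher, with 1.52% of all genes called (0.796% lower and 0.726% higher) and 8 members at an unadjusted p under 0.05, as were 23.9% of all tested genes. The DESeq2 test called 3 members lower there and 3 higher, the latter COL4A4, COL8A1 and COL27A1, and 8.62% of genes. The median log2 fold change of the 25 members was 0.22 in shEZH2 against control, where all tested genes had −0.01. It was 0.15 in shSUZ12 against control, where all genes had 0.00, and 0.17 between the lines, where all genes had 0.04. In shEZH2 15 of the 25 members had a log2 fold change above 0, and in shSUZ12 16 had. Of the 14192 tested genes, 6935 in shEZH2 and 7164 in shSUZ12 were above 0. The comparisons with control share the same control libraries, and in bulk RNA a change in the number of cells that make a collagen and a change in RNA per cell cannot be told apart.

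These calls rested on few libraries. Of the 9 calls, none survived the loss of control replicate 1 or 2, and 1 held (COL6A2 in shEZH2 against control) without either shSUZ12 library. Leaving out an shEZH2 library is no test of the calls that compare shEZH2, which are all but that of COL27A1. Such a fit leaves out the spread between the shEZH2 libraries, which agreed least. Fits without a control or shSUZ12 library keep that spread, hold fewer libraries and leave a group with 1 library. Which of these ended the calls was not tested. Directions were kept throughout these 9 calls, and the paragraphs on each gene give the values.

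**Figure D2:**
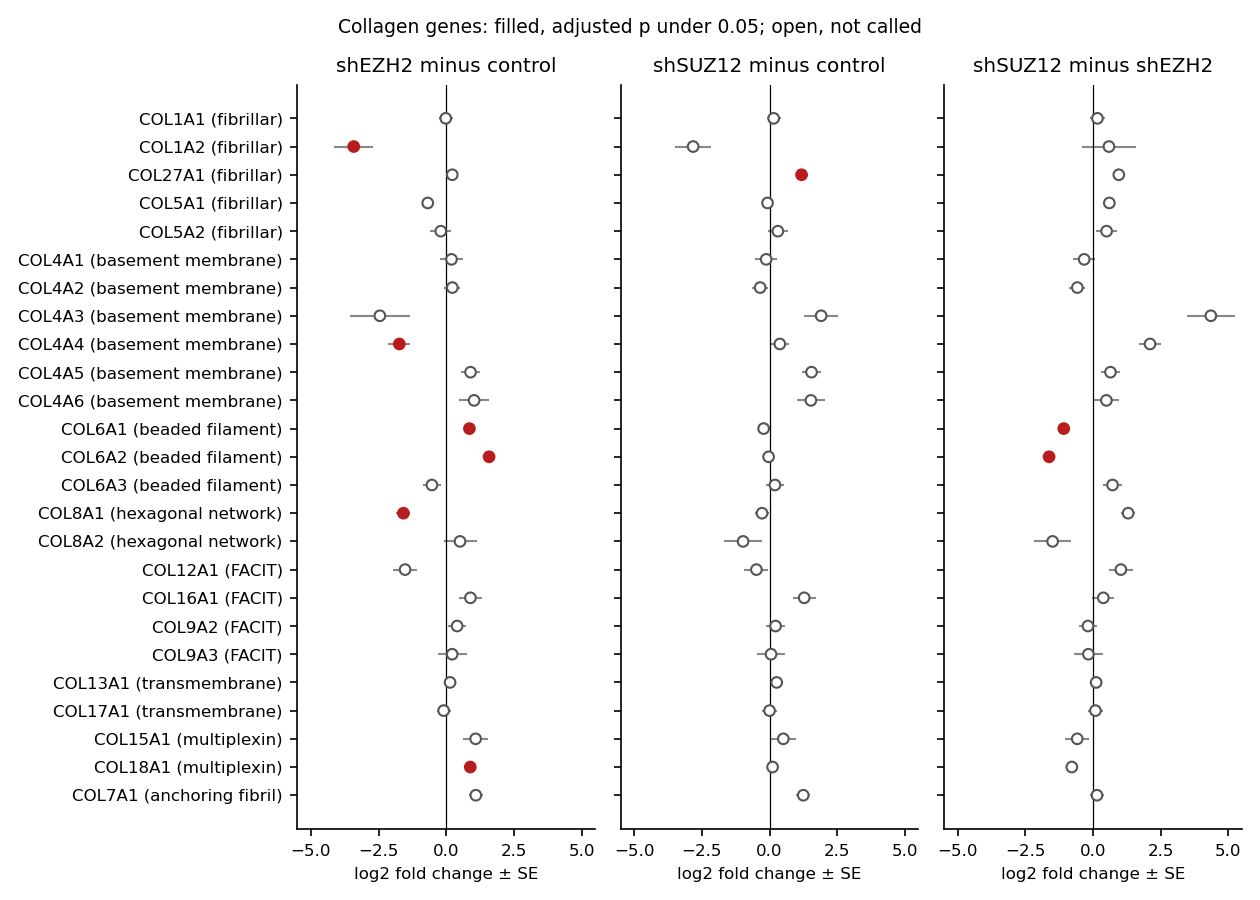
Log2 fold change with its standard error for each tested collagen gene in the 3 contrasts, from the edgeR fit of all libraries, with filled points for an adjusted p under 0.05 and open points otherwise. The filled points are COL1A2, COL4A4, COL6A1, COL6A2, COL8A1 and COL18A1 on the left, COL27A1 in the middle, and COL6A1 and COL6A2 on the right.

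Among the fibrillar chains, 5 of 11 were tested, and they moved separately. COL27A1, a fibrillar chain of cartilage and other tissues with a shortened helix, rose in shSUZ12. It was at 17.7 and 16.5 CPM in the controls, 22.1 and 17.8 CPM in shEZH2 and 34.2 and 43.5 CPM in shSUZ12. Both shSUZ12 libraries were above the other 4. The difference from control was 1.18 ± 0.22 (SE) on the log2 scale, or 2.27-fold (edgeR adjusted p = 0.0481), and the difference from shEZH2 of 0.96 ± 0.22 was not called (edgeR adjusted p = 0.0712). Without either shEZH2 library, which leaves both compared groups whole, the difference from control was also 1.18. Leaving out control replicate 1 or 2 gave 1.25 and 1.13 (edgeR adjusted p = 0.449 and 0.387), and leaving out shSUZ12 replicate 1 or 2 gave 1.34 and 0.997 (edgeR adjusted p = 0.268 and 0.524), so the call ended while the size stayed similar.

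COL1A2 encodes the partner that joins COL1A1 in type I collagen, the main collagen of bone, skin and tendon. It fell in shEZH2 from an already low level, with 25 and 12 counts in control, 2 and 1 in shEZH2 and 3 and 2 in shSUZ12. Only the controls had enough reads for COL1A2 to be tested, so its test against control could show a fall but not a rise. All 4 depleted libraries were below both controls. Summed over libraries, control was 11.5 times shEZH2 (95% counting interval 3.64 to 58.3, from 37 and 3 counts) and 7.41 times shSUZ12 (2.91 to 24.2, from 37 and 5 counts). In the edgeR fit the change was −3.42 ± 0.72 on the log2 scale in shEZH2 (edgeR adjusted p = 0.0353) and −2.82 ± 0.65 in shSUZ12, which was not called (edgeR adjusted p = 0.0953). The shEZH2 value lay between −3.92 and −2.82 with any 1 library left out, and its adjusted p reached 0.251 without control replicate 1 and 0.138 without control replicate 2.

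COL1A1, the other chain of type I collagen, did not follow COL1A2. It was at 10.0 and 15.1 CPM in the controls, 10.9 and 13.9 CPM in shEZH2 and 13.5 and 14.5 CPM in shSUZ12, and the groups overlapped. Its log2 fold changes were −0.02 ± 0.26 and 0.15 ± 0.26 against control, neither called. COL5A1, the abundant chain of type V collagen that starts collagen fibrils, was at 178 and 204 CPM in the controls, 130 and 108 CPM in shEZH2 and 167 and 196 CPM in shSUZ12. Both shEZH2 libraries were below the other 4, yet the difference of −0.68 ± 0.19 missed the threshold (edgeR adjusted p = 0.0693). The DESeq2 test called it at −0.67 (DESeq2 adjusted p = 0.0376). In edgeR it was −0.83 without shEZH2 replicate 1 and −0.52 without shEZH2 replicate 2, where the spread within shEZH2 is not measured. Its partner COL5A2 stayed between 0.72 and 1.12 CPM in all libraries, and the third type V chain COL5A3 had no count.

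Basement membrane chains were all tested, and the 3 pairs of type IV genes behaved in 3 ways. Each pair lies head to head on 1 chromosome (GENCODE, GRCh38): COL4A1 and COL4A2 on chromosome 13 overlap by 1422 bases, COL4A4 and COL4A3 on chromosome 2 lie 111 bases apart, and COL4A6 and COL4A5 on chromosome X 346 bases apart. The abundant pair, which forms the network found under most epithelia and vessels, was not called in any contrast. COL4A2 was at 295 and 219 CPM in the controls, 392 and 209 CPM in shEZH2 and 201 and 203 CPM in shSUZ12. COL4A1 was at 92.2 and 68.2 CPM in the controls, 134 and 49.8 CPM in shEZH2 and 73.2 and 73.9 CPM in shSUZ12. In both genes the shEZH2 libraries lay on opposite sides of control, and the 2.68-fold gap between them in COL4A1 was wider than the gap between any 2 of the other 4 libraries. The sign of the COL4A1 difference depended on which shEZH2 library was used. Against control it was 0.20 ± 0.41 with both, −0.69 without replicate 1 and 0.77 without replicate 2.

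COL4A4, which with COL4A3 and COL4A5 makes the network of the kidney filter, fell in shEZH2. It was at 1.31 and 1.85 CPM in the controls, 0.53 and 0.41 CPM in shEZH2 and 2.01 and 2.10 CPM in shSUZ12, and no groups overlapped. The change in shEZH2 was −1.73 ± 0.41 on the log2 scale (edgeR adjusted p = 0.0472), and the difference between shSUZ12 and shEZH2 was 2.11 ± 0.40 (edgeR adjusted p = 0.0514). Without control replicate 1 or 2 the shEZH2 value was −1.94 and −1.47 (edgeR adjusted p = 0.185 and 0.307), and without shSUZ12 replicate 1 or 2 it was −1.74 both times (edgeR adjusted p = 0.131 and 0.132). The call also ended when each library's trend with transcript length was removed, at −1.36 (edgeR adjusted p = 0.0572).

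Its head-to-head partner COL4A3 was near the floor in most libraries, with 3 and 4 counts in control, 1 and 0 in shEZH2 and 13 and 14 in shSUZ12. The order of the groups matched that of COL4A4, with shEZH2 lowest and shSUZ12 highest. However, COL4A3 had enough reads to be tested only through shSUZ12. The first place of shSUZ12 follows from that choice, which also limits the ratios given next, and lends COL4A4 no support. shSUZ12 was 25.1 times shEZH2 (95% counting interval 4.14 to 1028, from 27 and 1 counts) and 3.85 times control (1.64 to 10.5, from 27 and 7 counts). No COL4A3 contrast was called (edgeR adjusted p = 0.202, 0.229 and 0.058). The start sites of this pair are shown because the genes share the stretch between them: the RefSeq windows on GRCh38.p14, from 250 bases before to 50 bases after each start, share 82 bases. Capitals mark GC boxes (GGGCGG on either strand), of which the COL4A3 window held 2 and the COL4A4 window none, and neither held a TATA box (TATAAA on either strand). The COL4A3 window is chr2:227164374-227164673 on the plus strand, and the COL4A4 window is chr2:227164156-227164455 on the minus strand.
COL4A3: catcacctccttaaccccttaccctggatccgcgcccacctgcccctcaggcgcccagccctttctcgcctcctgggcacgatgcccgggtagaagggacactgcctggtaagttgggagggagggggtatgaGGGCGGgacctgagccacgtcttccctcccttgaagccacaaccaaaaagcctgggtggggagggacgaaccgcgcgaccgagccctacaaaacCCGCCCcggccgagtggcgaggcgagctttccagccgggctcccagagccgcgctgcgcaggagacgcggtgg
COL4A4: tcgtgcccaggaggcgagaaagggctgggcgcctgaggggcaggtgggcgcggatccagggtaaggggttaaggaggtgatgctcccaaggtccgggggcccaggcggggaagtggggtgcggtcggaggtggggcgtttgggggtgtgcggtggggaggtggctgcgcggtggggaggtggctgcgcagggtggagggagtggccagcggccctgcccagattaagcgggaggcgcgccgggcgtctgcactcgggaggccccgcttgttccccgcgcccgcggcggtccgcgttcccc

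COL4A5, a chain of the kidney filter and of skin basement membrane, was at 5.67 and 5.61 CPM in the controls, 14.2 and 6.80 CPM in shEZH2 and 15.4 and 17.7 CPM in shSUZ12. All 4 depleted libraries were above both controls. The differences of 0.90 ± 0.35 in shEZH2 and 1.55 ± 0.35 in shSUZ12 were not called (edgeR adjusted p = 0.152 and 0.0898). The shEZH2 difference was 0.26 without shEZH2 replicate 1 and 1.37 without shEZH2 replicate 2. With the DESeq2 test the shSUZ12 difference passed, at 1.54 (DESeq2 adjusted p = 0.00189). Its partner COL4A6 was at 0.23 to 0.48 CPM in the controls, 0.51 to 0.92 CPM in shEZH2 and at most 1.03 CPM in shSUZ12, in the same order of groups by their means, and was not called.

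In type VI collagen 2 chains rose together in shEZH2 and the third did not. COL6A2 had, with COL8A1, the largest called log2 change among members whose mean reached 5 CPM in any group. COL6A2 was at 28.6 and 25.8 CPM in the controls, 84.5 and 78.8 CPM in shEZH2 and 27.0 and 26.2 CPM in shSUZ12. COL6A1 was at 133 and 154 CPM in the controls, 267 and 253 CPM in shEZH2 and 116 and 131 CPM in shSUZ12. For both genes the shEZH2 libraries were above the other 4. COL6A1 rose in shEZH2 by 0.86 ± 0.17 on the log2 scale (1.81-fold, edgeR adjusted p = 0.0324), and COL6A2 by 1.58 ± 0.18 (2.997-fold, edgeR adjusted p = 0.00706). Both were lower in shSUZ12 than in shEZH2, with log2 differences of −1.07 ± 0.17 for COL6A1 (edgeR adjusted p = 0.0346) and −1.62 ± 0.18 for COL6A2 (edgeR adjusted p = 0.0154). Against control, shSUZ12 differed by −0.22 ± 0.17 and −0.03 ± 0.18, neither called. COL6A3, the long chain that completes the type VI monomer, was not called: it was at 15.9 and 11.5 CPM in the controls, 12.7 and 6.29 CPM in shEZH2 and 15.6 and 16.0 CPM in shSUZ12, a difference of −0.53 ± 0.34 in shEZH2 (edgeR adjusted p = 0.358). That difference was −1.13 without shEZH2 replicate 1 and −0.08 without shEZH2 replicate 2. With the length trend removed it was −0.18 (edgeR adjusted p = 0.595).

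Leaving out 1 library moved the sizes of these calls little and their p-values much. Without control replicate 1 or 2, COL6A2 in shEZH2 was 1.68 and 1.51 (edgeR adjusted p = 0.131 and 0.134) and COL6A1 was 0.78 and 0.96 (edgeR adjusted p = 0.27 and 0.229). Without shSUZ12 replicate 1 or 2, COL6A2 stayed called at 1.58 (edgeR adjusted p = 0.0334 and 0.0336), while COL6A1 at 0.85 did not (edgeR adjusted p = 0.114 and 0.115). The differences between the lines were lost without either control or either shSUZ12 library, with COL6A1 between −1.16 and −0.99 (largest edgeR adjusted p = 0.517) and COL6A2 between −1.70 and −1.57 (largest edgeR adjusted p = 0.287) over all libraries left out.

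The genes that rose in shEZH2 lie close together near the end of the long arm of chromosome 21 (GENCODE, GRCh38). COL18A1 spans 45405137 to 45513720, COL6A1 45981737 to 46005050 and COL6A2 46098097 to 46132849, all on the plus strand, so that COL6A1 and COL6A2 are 93.05 kb apart and COL18A1 ends 468.0 kb before COL6A1. The stretch from COL18A1 to COL6A2 covers 727.7 kb and holds 9 genes of the deposited counts. Of these, 4 were tested, the 3 collagens and PCBP3, an RNA-binding protein gene between them. PCBP3 was at 3.42 and 6.08 CPM in the controls, 1.16 and 4.09 CPM in shEZH2 and 1.65 and 1.67 CPM in shSUZ12, and its difference of −0.86 in shEZH2 was not called (edgeR adjusted p = 0.354). With 1 tested gene other than the collagens, these data do not show whether the stretch as a whole differed.

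COL18A1 encodes a heparan sulfate-bearing basement membrane collagen whose cleaved end is endostatin, an inhibitor of vessel growth. It was at 128 and 159 CPM in the controls, 243 and 290 CPM in shEZH2 and 145 and 166 CPM in shSUZ12. Both shEZH2 libraries were above the other 4, while control and shSUZ12 overlapped. COL18A1 rose in shEZH2 by 0.89 ± 0.19 (1.85-fold, edgeR adjusted p = 0.0391), and the difference between shSUZ12 and shEZH2 of −0.78 ± 0.19 was not called (edgeR adjusted p = 0.0818). Without control replicate 1 or 2 the rise was 0.77 and 1.05 (edgeR adjusted p = 0.291 and 0.224), and without either shSUZ12 library it was 0.89 (edgeR adjusted p = 0.119 and 0.121). On the other strand 3 genes overlap COL18A1, and each stayed at or under 0.29 CPM. The other multiplexin, COL15A1, was at 0.41 and 0.57 CPM in the controls, 1.16 and 0.92 CPM in shEZH2 and 0.54 and 0.86 CPM in shSUZ12, and was not called.

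The start windows of the genes that rose together on chromosome 21 are printed where RefSeq holds them, for COL6A2 (chr21:46097862-46098161) and for both starts of COL18A1 (chr21:45404915-45405214 and chr21:45455272-45455571), all on the plus strand of GRCh38.p14. Capitals mark GC boxes (GGGCGG on either strand) and TATA boxes (TATAAA on either strand).
COL6A2: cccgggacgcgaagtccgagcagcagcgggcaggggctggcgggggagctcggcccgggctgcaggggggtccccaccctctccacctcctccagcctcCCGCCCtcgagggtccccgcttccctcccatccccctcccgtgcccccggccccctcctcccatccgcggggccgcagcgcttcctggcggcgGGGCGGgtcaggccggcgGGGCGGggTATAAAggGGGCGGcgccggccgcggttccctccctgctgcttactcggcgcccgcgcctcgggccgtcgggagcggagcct
COL18A1, upstream start: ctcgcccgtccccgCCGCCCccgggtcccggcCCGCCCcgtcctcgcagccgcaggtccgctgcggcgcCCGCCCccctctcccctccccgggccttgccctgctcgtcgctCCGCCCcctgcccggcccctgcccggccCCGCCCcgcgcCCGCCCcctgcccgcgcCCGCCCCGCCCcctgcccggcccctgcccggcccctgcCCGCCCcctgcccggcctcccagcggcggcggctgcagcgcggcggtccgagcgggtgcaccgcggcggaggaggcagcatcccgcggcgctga
COL18A1, downstream start: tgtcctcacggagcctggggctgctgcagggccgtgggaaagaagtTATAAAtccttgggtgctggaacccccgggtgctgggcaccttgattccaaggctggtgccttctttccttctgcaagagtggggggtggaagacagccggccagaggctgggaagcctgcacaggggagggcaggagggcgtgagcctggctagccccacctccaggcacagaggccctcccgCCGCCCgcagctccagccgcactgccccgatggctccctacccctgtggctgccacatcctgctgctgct

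The COL6A2 window held 4 GC boxes with a TATA box between them. The upstream COL18A1 window held 9 GC boxes, some overlapping, and no TATA box, and the downstream window held 1 of each. Among all 35116 RefSeq promoter windows of this length, 44.95% held a GC box and 11.53% a TATA box. Of the 44 windows found for 32 members, 54.55% held a GC box and 18.18% a TATA box. Windows of tested members, 22 in all, held a GC box in 16 and had a median of 26.5 CpG dinucleotides, and the 22 windows of members that were not tested held one in 8 and had a median of 13 CpG. The median over all windows was 14 CpG. These are descriptions of letters, and several windows belong to the same gene.

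COL8A1, a short chain that forms hexagonal networks in vessel walls and the cornea, fell in shEZH2. It was at 96.4 and 78.1 CPM in the controls, 35.8 and 22.5 CPM in shEZH2 and 71.0 and 73.0 CPM in shSUZ12. Both shEZH2 libraries were below the other 4. COL8A1 fell by 1.58 ± 0.26 on the log2 scale, to a level 2.99-fold lower (edgeR adjusted p = 0.0177), and its difference between shSUZ12 and shEZH2 was 1.30 ± 0.25 (edgeR adjusted p = 0.055). The shEZH2 value was −1.39 and −1.73 without control replicate 1 or 2 (edgeR adjusted p = 0.188 and 0.137) and −1.58 without either shSUZ12 library (edgeR adjusted p = 0.056 and 0.0579). COL8A2, the partner chain, stayed at 0.18 to 1.02 CPM and was not called.

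COL7A1, whose protein anchors the basement membrane to the tissue beneath, was higher than control in all 4 depleted libraries without passing the test. It was at 122 and 195 CPM in the controls, 317 and 360 CPM in shEZH2 and 323 and 430 CPM in shSUZ12. The groups of depleted cells overlapped each other and neither overlapped control. Against control the differences were 1.09 ± 0.26 in shEZH2 (edgeR adjusted p = 0.0508) and 1.25 ± 0.26 in shSUZ12 (edgeR adjusted p = 0.073). The first lay close to the threshold: it was called under 7 of 8 other settings, with the DESeq2 test at 1.11 (DESeq2 adjusted p = 0.00212), and under none of the 6 fits that left out 1 library. Of the 25 tested members, 9 had shEZH2 libraries above both controls and 7 had them below, while 26.3% and 28.1% of all tested genes did so. For shSUZ12 the tested members were 9 above and 5 below, against 30.3% and 30.9% of all tested genes. Between the lines 10 tested members had shSUZ12 above shEZH2 and 6 below, against 28.1% and 26.5%.

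FACIT chains, which coat fibrils, gave no call, and 4 of 10 were tested. COL12A1, a long chain bound to type I fibrils, was at 167 and 132 CPM in the controls, 78.6 and 25.7 CPM in shEZH2 and 108 and 106 CPM in shSUZ12. Both shEZH2 libraries were the lowest, but they differed 3.06-fold from each other, and the difference of −1.52 ± 0.45 was not called (edgeR adjusted p = 0.0843). The COL12A1 difference was −2.55 without shEZH2 replicate 1 and −0.90 without shEZH2 replicate 2. Those fits hold 1 shEZH2 library and do not measure the spread within shEZH2. COL16A1 was at 3.11 and 2.71 CPM in the controls, 3.28 and 7.56 CPM in shEZH2 and 5.77 and 8.39 CPM in shSUZ12, with a difference of 1.28 ± 0.42 in shSUZ12 that was not called (edgeR adjusted p = 0.24). The cartilage chain COL9A2 was at 8.38 and 9.46 CPM in the controls, 8.78 and 14.8 CPM in shEZH2 and 12.9 and 7.92 CPM in shSUZ12, with overlap between all groups. COL9A3 stayed under 1 CPM in every library.

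The transmembrane chains gave no call, and 2 of 4 were tested. COL13A1 was at 264 and 280 CPM in the controls, 247 and 353 CPM in shEZH2 and 317 and 336 CPM in shSUZ12. Its differences from control were 0.14 ± 0.21 and 0.26 ± 0.21 on the log2 scale, neither called. COL17A1, the hemidesmosome collagen of epithelial cells, was at 9.46 and 12.4 CPM in the controls, 8.78 and 11.7 CPM in shEZH2 and 9.57 and 12.3 CPM in shSUZ12. These groups overlapped nearly completely, with differences of −0.09 ± 0.26 and 0.00 ± 0.26 from control.

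For chains that can join in 1 collagen, the ratio of partner transcripts per length was set side by side in every library. COL4A2 exceeded COL4A1 by 3.26 and 3.28 times in control, 2.99 and 4.28 times in shEZH2 and 2.80 times in both shSUZ12 libraries. COL6A1 exceeded COL6A2 by 3.79 and 4.87 times in control, 2.58 and 2.62 times in shEZH2 and 3.50 and 4.08 times in shSUZ12, so that the shEZH2 libraries had the lowest ratios. COL6A1 exceeded COL6A3 by 21.2 and 33.9 times in control, 53.2 and 102 times in shEZH2 and 18.9 and 20.8 times in shSUZ12. The shEZH2 libraries had the highest values of this ratio, and they differed from each other beyond counting error (95% intervals 47.0 to 60.4 and 85.3 to 123). The COL6A3 transcript has 10.75 kb and that of COL6A1 4.238 kb, and the shEZH2 replicates differed with transcript length. The part of length in this ratio was not tested. COL1A1 exceeded COL1A2 by 7.17 and 21.3 times in control, and by 81.0 to 219 times in the depleted libraries, where COL1A2 had 1 to 3 counts. COL5A1 exceeded COL5A2 by 174 and 199 times in control, 141 and 126 times in shEZH2 and 125 and 164 times in shSUZ12. Both controls had the highest values, but COL5A2 had 14 to 25 counts and the 95% counting intervals of all libraries overlapped. Transcript ratios do not give the composition of the secreted protein.

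**Figure D3:**
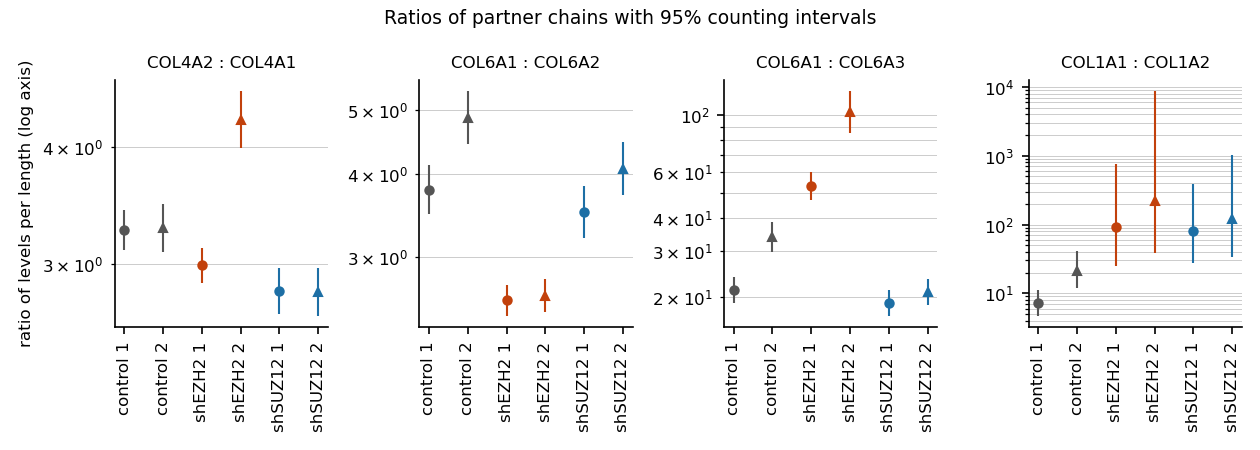
Ratio of partner chain transcripts per length in each library on log axes, with bars for the 95% counting interval, in grey for control, orange for shEZH2 and blue for shSUZ12. The COL6A1 to COL6A2 ratio is lowest in the shEZH2 libraries, at 2.58 and 2.62, and the COL6A1 to COL6A3 ratio is highest there, at 53.2 and 102. COL6A3 has a longer transcript than COL6A1, and the shEZH2 replicates differ with transcript length.

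Transcript length bears on these members, since collagen transcripts are long. The tested members had a median length of 6494 bases (2497 to 11723), against 3366 bases for all tested genes with a length. In shEZH2 the difference between replicates fell with length: the median of replicate 2 minus replicate 1 was 0.67 on the log2 scale in the shortest of 10 equal bins of genes (median 1028 bases) and −0.81 in the longest (median 9531 bases). The same medians ran from −0.07 to 0.02 in control and from 0.03 to −0.07 in shSUZ12. Between the shEZH2 replicates 6 of 25 members differed over 2-fold in CPM (COL4A1, COL4A5, COL6A3, COL8A2, COL12A1 and COL16A1). Between the controls 3 did, COL4A6, COL8A2 and COL9A3, all under 1 CPM, and 0 did in shSUZ12. With 0.1 CPM added to each value these counts were 6, 0 and 0. RNA quality values are not used here, and the part of this trend in the results was not tested beyond its removal.

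Removing each library's trend with length kept 8 of the 9 calls and added others. In shEZH2 against control, COL7A1 was then 1.59 (edgeR adjusted p = 0.0173), COL4A5 1.15 (edgeR adjusted p = 0.0139) and COL12A1 −1.25 (edgeR adjusted p = 0.00994), all past the threshold, and COL4A4 was not. COL6A1 was 1.02, COL6A2 1.64, COL18A1 1.27 and COL8A1 −1.35, all still called. In shSUZ12 against control, COL4A5 at 1.55 (edgeR adjusted p = 0.00809) and COL1A2 at −2.82 (edgeR adjusted p = 0.0483) joined COL27A1. COL5A1, at −0.68 in shEZH2 before removal, was at −0.27 after it.

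**Figure D4:**
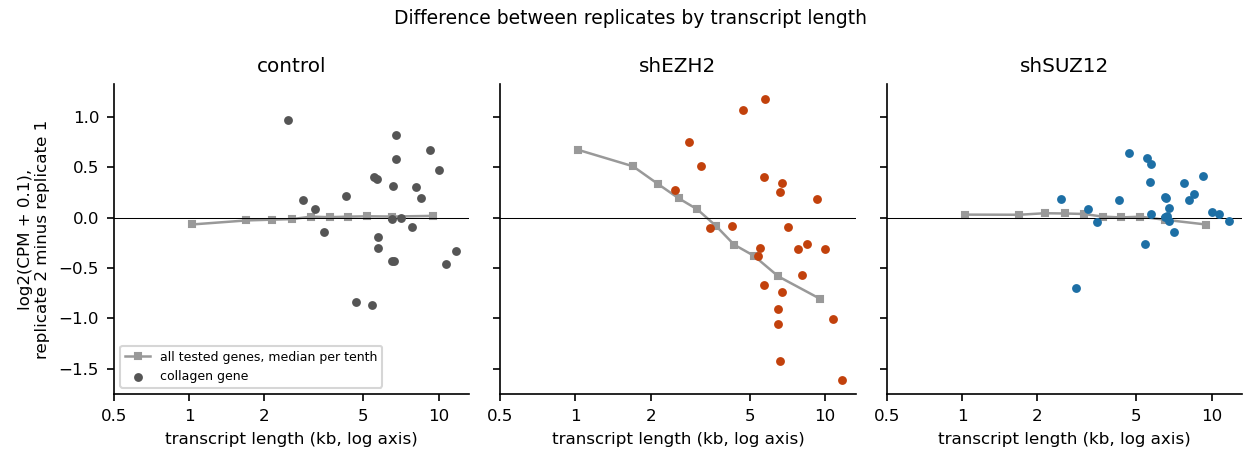
Difference between the replicates of each group, as log2(CPM + 0.1) of replicate 2 minus replicate 1, against transcript length in kilobases on a log axis, with coloured points for the 25 tested collagen genes and a grey line for the median of all tested genes in 10 bins of length. The grey line stays near 0 in control and shSUZ12 and runs from 0.67 down to −0.81 in shEZH2.

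Enzymes and chaperones that modify and fold collagen chains in the endoplasmic reticulum were measured alongside, from a list of 20 genes, all tested. In shEZH2 4 of them rose and 1 fell against control, in shSUZ12 1 rose and 1 fell, and between the lines 3 were lower in shSUZ12. Of all tested genes 3.54% rose and 3.20% fell in shEZH2, 0.719% rose and 0.888% fell in shSUZ12, and 0.796% were lower in shSUZ12 than in shEZH2. The median log2 fold change of the list was −0.05 in shEZH2 and −0.20 in shSUZ12 against control. In shSUZ12 against shEZH2 it was −0.43, where all tested genes had 0.04. In that contrast 15 of the 20 were below 0 and 5 above, against 6710 and 7476 of 14192 tested genes. There 13 had an unadjusted edgeR p under 0.05, as did 23.9% of all tested genes. FKBP10, a chaperone that assists hydroxylation of the crosslinking ends of collagen, rose most. It was at 2.07 and 0.81 CPM in the controls, 35.5 and 25.4 CPM in shEZH2 and 10.0 and 10.3 CPM in shSUZ12, without overlap between any groups. The rise was 4.39 ± 0.42 in shEZH2 (1233 against 63 counts, with a 95% counting interval of their ratio from 16.3 to 27.5, edgeR adjusted p = 0.00449) and 2.80 ± 0.40 in shSUZ12 (439 against 63 counts, 5.33 to 9.21, edgeR adjusted p = 0.0217). FKBP10 had 46 and 17 counts in the controls, a spread between libraries that these counting intervals leave out. In shEZH2 it stayed called without control replicate 1, at 5.25 (edgeR adjusted p = 0.0449), and not without control replicate 2, at 3.87 (edgeR adjusted p = 0.0585). The FKBP10 call in shSUZ12 ended without either control library, at 3.66 and 2.28 (edgeR adjusted p = 0.11 and 0.147), and without either shSUZ12 library, at 2.82 and 2.78 (edgeR adjusted p = 0.141 and 0.145).

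Relatives of the prolyl 3-hydroxylases moved in different directions. LEPREL4 (also P3H4), which acts with a lysyl hydroxylase complex, starts 75 bases from FKBP10 on the opposite strand of chromosome 17. It was at 10.4 CPM in both controls, 33.7 and 30.7 CPM in shEZH2 and 12.7 and 14.3 CPM in shSUZ12, and rose in shEZH2 by 1.64 ± 0.20 (edgeR adjusted p = 0.00743). LEPREL2 (also P3H3), of the same complex, was at 4.46 and 4.09 CPM in the controls, 15.3 and 17.8 CPM in shEZH2 and 4.11 and 4.01 CPM in shSUZ12, and rose in shEZH2 by 1.95 ± 0.23 (edgeR adjusted p = 0.00743). Both had shEZH2 above all other libraries and were lower in shSUZ12 than in shEZH2, with log2 differences of −1.26 ± 0.19 for LEPREL4 (edgeR adjusted p = 0.033) and −2.03 ± 0.23 for LEPREL2 (edgeR adjusted p = 0.0154). LEPREL1 (also P3H2), a prolyl 3-hydroxylase that acts on type IV collagen, fell in shSUZ12 instead. It was at 151 and 129 CPM in the controls, 95.1 and 80.3 CPM in shEZH2 and 47.7 and 52.9 CPM in shSUZ12, a change of −1.48 ± 0.19 in shSUZ12 (edgeR adjusted p = 0.0144) and of −0.68 ± 0.19 in shEZH2 (edgeR adjusted p = 0.0729).

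Of the remaining called members of this list, PPIB, a prolyl isomerase of the folding complex, rose in shEZH2, at 76.3 and 61.3 CPM in the controls and 117 and 166 CPM in shEZH2 (1.04 ± 0.23, edgeR adjusted p = 0.0419). FKBP14, another isomerase, fell there from 32.0 and 33.5 CPM to 16.8 and 11.8 CPM (−1.20 ± 0.23, edgeR adjusted p = 0.027). PLOD3, a lysyl hydroxylase, was at 174 and 159 CPM in the controls, 246 and 259 CPM in shEZH2 and 129 and 138 CPM in shSUZ12, and only the difference between the lines was called (−0.92 ± 0.16, edgeR adjusted p = 0.0454). The most abundant members were not called: P4HB, a subunit of prolyl 4-hydroxylase, was at 677 to 971 CPM over all libraries, and the collagen chaperone SERPINH1 was at 268 to 380 CPM. Every call of this list other than that of FKBP10 in shEZH2 ended without either control library, among them LEPREL2 in shEZH2 at 2.04 and 1.89 (edgeR adjusted p = 0.118 and 0.13), LEPREL4 at 1.66 and 1.63 (edgeR adjusted p = 0.138 and 0.133) and LEPREL1 in shSUZ12 at −1.34 and −1.60 (edgeR adjusted p = 0.248 and 0.13). The LEPREL2 and LEPREL4 rises held without either shSUZ12 library, and those of PPIB and FKBP14 did not, at 1.04 (largest edgeR adjusted p = 0.115) and −1.20 (largest edgeR adjusted p = 0.0939).

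**Figure D5:**
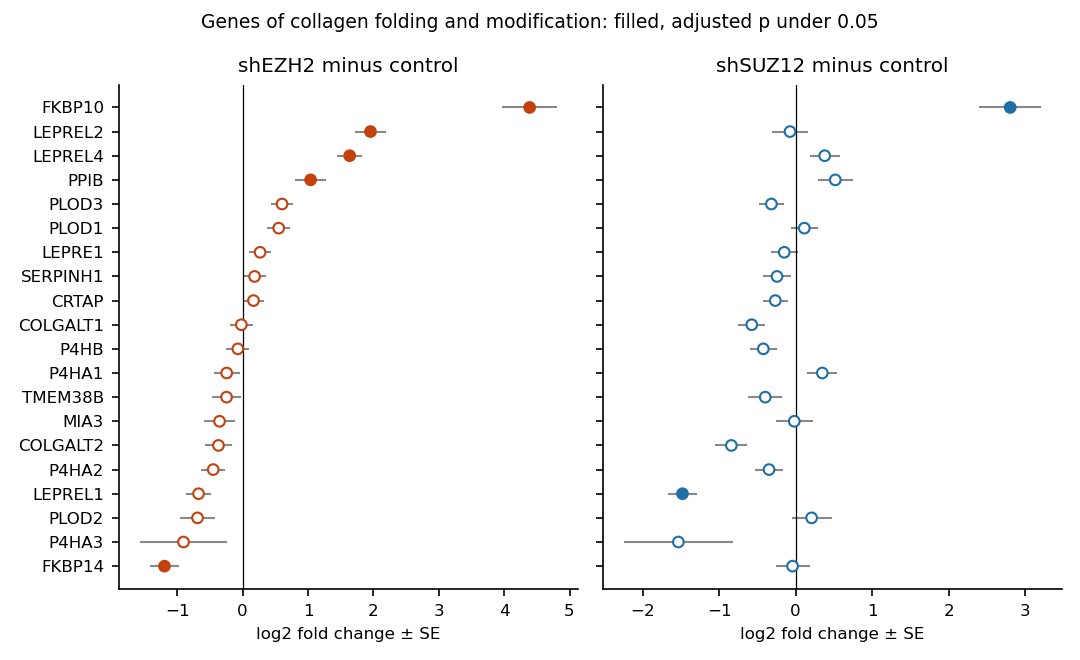
Log2 fold change with its standard error of the 20 genes of collagen folding and modification against control, in shEZH2 on the left and shSUZ12 on the right, with filled points for an edgeR adjusted p under 0.05. FKBP10 is filled on both sides, at 4.39 and 2.80, LEPREL2, LEPREL4, PPIB and FKBP14 on the left only, and LEPREL1 on the right only.

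Outside the cell, collagen ends are trimmed and crosslinked by a list of 13 genes, 11 of them tested. In shEZH2 none rose and 2 fell, against 3.54% and 3.20% of all tested genes. In shSUZ12 none was called by edgeR, and 2 had an unadjusted p under 0.05, as did 13.1% of all tested genes. The DESeq2 test called 2 there, both lower, and 3.28% of genes. Between the lines edgeR called 1 and the DESeq2 test 2, all higher in shSUZ12, against 1.52% and 8.62% of genes. LOX, the founding lysyl oxidase, was at 25.4 and 23.5 CPM in the controls, 11.5 and 10.6 CPM in shEZH2 and 30.2 and 19.1 CPM in shSUZ12, and fell in shEZH2 by 1.15 ± 0.26 on the log2 scale (edgeR adjusted p = 0.0422). LOXL4 was at 20.4 and 20.2 CPM in the controls, 4.58 and 9.86 CPM in shEZH2 and 8.45 and 8.35 CPM in shSUZ12, and fell in shEZH2 by 1.49 ± 0.34 (edgeR adjusted p = 0.0448). All 4 depleted libraries were below both controls for LOXL4, and shSUZ12 surrounded the control values for LOX. Without control replicate 1 or 2, LOX was −1.06 and −1.21 (edgeR adjusted p = 0.277 and 0.254) and LOXL4 −1.47 and −1.51 (edgeR adjusted p = 0.252 and 0.265), so neither call held, and without shSUZ12 replicate 1 or 2 they were −1.15 (edgeR adjusted p = 0.0808 and 0.0806) and −1.50 (edgeR adjusted p = 0.107 and 0.109). ADAMTS14, a procollagen N-proteinase, was higher in shSUZ12 than in shEZH2, with 32 against 1 counts, a ratio of 29.8 (95% counting interval 4.97 to 1212, edgeR adjusted p = 0.05, under the threshold before rounding). ADAMTS14 had enough reads to be tested only through shSUZ12, so it could not have been called lower there than in shEZH2. It was not called without either control library (edgeR adjusted p = 0.149 and 0.148) or either shSUZ12 library (edgeR adjusted p = 0.464 and 0.31). The most abundant members were LOXL2, at 341 and 295 CPM in the controls, 265 and 262 CPM in shEZH2 and 178 and 193 CPM in shSUZ12, and BMP1, the C-proteinase, at 34.9 to 44.7 CPM, neither called.

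Collagen receptors and collagen-degrading genes gave no call in any contrast by edgeR. Of 9 receptors 6 were tested, and 2, 2 and 4 had an unadjusted p under 0.05 in shEZH2 against control, shSUZ12 against control and shSUZ12 against shEZH2, where 26.8%, 13.1% and 23.9% of all tested genes had. The DESeq2 test called ITGA10 in the second of these, and ITGA1 and DDR1 in the third, all higher in shSUZ12. The integrin subunit ITGB1 led at 1097 and 936 CPM in the controls, 745 and 317 CPM in shEZH2 and 831 and 847 CPM in shSUZ12, followed by ITGA2 at 148 to 432 CPM. Of 8 degradation genes 4 were tested, and 0, 1 and 2 had an unadjusted p under 0.05. The membrane collagenase MMP14 was at 507 and 505 CPM in the controls, 363 and 436 CPM in shEZH2 and 753 and 726 CPM in shSUZ12, without overlap, and the DESeq2 test alone called its difference between the lines (0.87, DESeq2 adjusted p = 0.00325). The collagen uptake receptor MRC2 was at 43.6 to 63.4 CPM.

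Markers of cells that make collagen in tissue were looked at beside these results. The 7 fibroblast markers summed to 4.50 and 8.12 CPM in the controls, 8.78 and 9.51 CPM in shEZH2 and 8.002 and 9.01 CPM in shSUZ12, so the shEZH2 sums were above both controls and shSUZ12 overlapped both other groups. Of the 3 that were tested, LUM and THY1 rose in shEZH2 by edgeR, and PDGFRB, which held most of the sum, did not. LUM was at 0.18 and 0.19 CPM in the controls and 1.11 and 0.72 CPM in shEZH2. THY1 was listed at 0 in both controls and both shSUZ12 libraries, and was at 1.49 and 0.87 CPM in shEZH2. Only the shEZH2 libraries had enough reads for LUM and THY1 to be tested, so no fall in shEZH2 could have been called. Without control replicate 1 or 2, LUM was 2.26 and 2.30 (edgeR adjusted p = 0.271 and 0.294) and the THY1 adjusted p was 0.176 and 0.186. The DESeq2 test called neither LUM nor THY1 (DESeq2 adjusted p = 0.0835 and 0.362). The other 4, DCN, POSTN, FAP and PDGFRA, were at 0.102 CPM or less in every library. Of 5 blood markers CD14 alone was tested, and it rose in shEZH2 by edgeR, from 0.77 and 0.67 CPM to 2.03 and 4.50 CPM, while CD3E was listed at 0 in all libraries. Of 4 endothelial markers 2 were tested: PECAM1 rose in shEZH2, from 1.85 and 2.99 CPM to 6.22 and 7.87 CPM, and KDR fell, from 8.87 and 6.60 CPM to 2.70 and 0.97 CPM, while CDH5 was listed at 0 in all libraries. KDR also fell in shSUZ12, to 1.34 CPM in both libraries, a call lost without either library of control or of shSUZ12 (edgeR adjusted p from 0.221 to 0.416). Without control replicate 1 or 2 the shEZH2 calls were lost, with edgeR adjusted p = 0.231 and 0.278 for CD14, 0.295 and 0.210 for PECAM1 and 0.261 and 0.213 for KDR. The blood markers summed to 0.991 and 0.998 CPM in the controls, 2.07 and 4.55 CPM in shEZH2 and 2.06 and 2.43 CPM in shSUZ12, and the endothelial markers to 10.99 and 9.60, 8.92 and 8.84, and 5.99 and 8.44 CPM in the same order. The part of these markers in the collagen results was not tested.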

How the data were processed

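Per the labels' protocols, total RNA of MDA-MB-231 cells was column-purified and sequenced from stranded poly(A) libraries, 2 per group in 3 groups taken from the sample titles. The deposited values are raw counts of reads for each gene symbol and library. STAR, GenomeStudio 2010.1, R 3.2.5 and the build GRCh38 appear in the submitters' processing notes, with no role given. Which annotation and strand setting the counting used is not stated, so overlapping genes may share reads.

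Among 29748 entries 4 name no gene. They held 16.5 to 21.0% of all counts and were left out, with multimapping reads at 7.21 to 10.4%. Of 29744 genes, 8814 had no count, and 14192 passed edgeR's filterByExpr and were tested. CPM values were computed here with TMM-scaled library sizes, and levels per length with the longest transcript in GENCODE version 29 (94.2% of tested genes had one).

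One robust quasi-likelihood fit (R 4.3.3, edgeR 4.0.16) held all 6 libraries, with 3 residual degrees of freedom. A gene was called where its p, adjusted by Benjamini-Hochberg over all tested genes, was under 0.05. The fit was tested on simulated data. Standard errors came from the fold change and its F statistic. With 2 libraries a group, an exact permutation test of 1 gene cannot go below p = 0.333. Intervals (95%) cover counting error only. Alternatives were DESeq2 1.42.0, its size factors in edgeR, no filter, only the compared groups, each library left out, the replicate number as a block, and the trend with length removed.

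All members were accounted for. Values per library are given for members that were called, had a mean of at least 5 CPM in a group, or partner such a chain. From each list the called and the 2 most abundant genes are named. Genes chosen after their values were seen are PCBP3, ITGA10, ITGA1 and DDR1. Members and lists were chosen with earlier results of these data known. Promoter windows are those of RefSeq on GRCh38.p14.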

Additional observations from a re-analysis of the deposited data

Results flagged for a closer look

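The following genes differed between the depleted lines in the direct edgeR test of shSUZ12 against shEZH2 (adjusted p under 0.05), although each line was also compared with the same control. COL6A1 and COL6A2, of the 3 tested type VI collagen chains, differed by −1.07 and −1.62 on the log2 scale, with lower levels in shSUZ12, while COL6A3 was 0.73 higher there and not called (edgeR adjusted p = 0.242). The collagen-modifying genes PLOD3, LEPREL2 and LEPREL4 differed by −0.92, −2.03 and −1.26, again lower in shSUZ12. The procollagen proteinase ADAMTS14 differed by 4.60, from 32 and 1 counts, so that this fitted value depends on the prior count. Without its shSUZ12 counts ADAMTS14 would not have been tested. EZH2 differed by 1.86 and is the gene that the shRNA in shEZH2 was directed against.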

How the results depend on the processing

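The count of called collagen members depended on the processing more than the directions did. In shEZH2 against control it was 6, with only those groups in the fit 1, and with 1 library left out 0 to 13. In shSUZ12 against control it was 1, with the DESeq2 test 3, without a filter on low counts 3, with only those groups 7, with the trend of length removed 3, and with 1 library left out 0 to 8. Between the lines it was 2, with the DESeq2 test 6, without a filter 6, with only those groups 0, with the length trend removed 7, and with 1 library left out 0 to 13. Leaving out a library leaves its group with 1 sample, which is assumed to vary like the others. With the replicate number as a block the counts were 8, 2 and 4, and with the block and the length trend removed together 9, 4 and 8. The labels do not say whether same-numbered libraries share more than a number. Their deviations correlated at 0.116, 0.0932 and 0.166 over genes, and whether they form batches was not tested. COL4A1 reversed without shEZH2 replicate 1, to −0.69 against control and 0.56 between the lines, and was 0.77 and −0.90 without replicate 2. All 9 calls held with DESeq2's size factors, the DESeq2 test, no filter, the block and the fit that was not robust, 8 held with the length trend removed and 2 with only the compared groups. The median of the fibrillar chains in shEZH2 was −0.20 and turned to 0.13 with the length trend removed, and in shSUZ12 it was 0.15 and turned to −0.09 without control replicate 1. The causes were not tested. Chains with group means under 1 CPM, such as COL1A2 and COL4A3, rest on counts too few for a firm size.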
